A study of Mus musculus with 12 samples.

Results

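The cartilage matrix outside the collagen fibrils is built from a large proteoglycan, the link proteins that hold it on hyaluronan and a set of adapter proteins, and 10 genes for such proteins were followed here through the growth plate of the mouse forelimb. They were taken by symbol, which matched 1 row each among the 36186 gene rows of the RNA-Seq table, and are the proteoglycans *Acan* and *Vcan*, the link proteins *Hapln1* and *Hapln3*, the matrilins *Matn1*, *Matn2*, *Matn3* and *Matn4*, and the adapters *Comp* and *Chad*. All 10 were among the 10936 genes that passed the filter on low values, which asks for at least 5 NRPKM (RPKM normalized further between libraries by the authors) in at least 3 of the 12 libraries. The filter was met in all 12 libraries by 9 of them, and by *Hapln3* in only 4, none of which was an *aadd* library.

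The study compared chondrocytes of the zeugopod (ulna and radius) at E15.5 to follow gene expression through cartilage maturation and to see what the loss of Hox function changes. There were 4 groups of 3 libraries, all on a mixed 129/CD-1 background. WT resting, WT proliferative and WT hypertrophic cells were cut out by laser capture microdissection (LCM), and the deposited labels call the last of these hyperproliferative. The *aadd* libraries came from homozygous *Hoxa9,10,11*/*Hoxd9,10,11* mutants, in which a LoxP site and a small deletion shift the reading frame in the first exon of each of the 6 genes. Their compartment is labelled resting, but the small mutant elements were not divided and the entire chondrocyte population was taken, so the comparison with WT resting sets a whole element against 1 zone. Some perichondrium was captured with the chondrocytes in all groups, and in each group the 3 sets were independent.

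Aggrecan, the product of *Acan*, carries chondroitin sulfate chains whose charge draws water into cartilage and gives it stiffness against load. It is anchored on hyaluronan, and link protein 1 (*Hapln1*) clamps that joint. Matrilins, cartilage oligomeric matrix protein (*Comp*) and chondroadherin (*Chad*) tie proteoglycans, collagen fibrils and cell surfaces to each other, and versican (*Vcan*) is the related proteoglycan of loose mesenchyme and of early condensations, which aggrecan replaces as cartilage forms.

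The depth was estimated at about 1890000 to 3240000 reads per library, from the value that 1 read takes in 1615 rarely read genes. The estimate treats NRPKM as plain RPKM, so it is off by any factor that the further normalization gave a library. No chondrocyte marker of 10 was at 0 in any group, and the summed level of 10 hypertrophic markers was 90.8 to 105 NRPKM across WT resting, 656 to 957 in WT proliferative, 1830 to 3880 in WT hypertrophic and 57.4 to 76 in *aadd*. Hypertrophic replicate 1 stood apart. Its hypertrophic markers summed to 1830 NRPKM, against 3540 in replicate 2 and 3880 in replicate 3, and were not uniform. *Mmp13* was at 3.05 there against 735 and 661, while *Col10a1* was highest there, at 264 against 166 and 221. The chondrocyte markers of replicate 1 summed to 2100 NRPKM, against 501 in replicate 2 and 724 in replicate 3. Its osteoclast markers summed to 70.3 against 1310 and 963, and its macrophage markers to 31.1 against 450 and 364. Its endothelial markers summed to 20.8 against 303 and 210, and its osteoblast markers to 1670 against 3580 and 4730. Calls of the 10 genes that rest on the hypertrophic group are therefore given with and without replicate 1. It was set apart with these values known, and its removal leaves the hypertrophic libraries that are poorer in chondrocyte markers. Fits without replicate 1 thus favour lower levels of cartilage genes, and they are given as a description. The macrophage sums of replicates 2 and 3 came mostly from *Cd68*, *Tyrobp* and *Csf1r*, and most other markers of that list were low. The 6 mutated genes were still read in *aadd*, with medians of 10 to 47.3 NRPKM, and a frameshift need not lower a transcript, so reads of these genes do not speak against the labels. *Hoxd9* (22.5 to 29.6), *Hoxd10* (39.6 to 52.1) and *Hoxd11* (25.1 to 35.4) lay above every WT library. Their highest WT resting values were 8.79, 23.3 and 7.31. *Hoxa11* (5.17 to 11.1) lay just below the resting range of 11.3 to 30.5, and *Hoxa9* and *Hoxa10* overlapped with WT resting.

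The 10 genes lie on 8 chromosomes (mm10), and 4 of them form 2 pairs of close neighbours. *Acan* (gene ID 11595, chromosome 7, 79053483 to 79115099, plus strand) ends 1.9 kb from *Hapln3* (gene ID 67666, chromosome 7, 79117027 to 79131018, minus strand). *Hapln1* (gene ID 12950, chromosome 13, 89540636 to 89611832, plus strand) and *Vcan* (gene ID 13003, chromosome 13, 89655310 to 89742512, minus strand) are 43.5 kb apart. In both pairs a proteoglycan gene and a link protein gene point toward each other, and in both the neighbours differed in their pattern over the groups. The others are *Matn1* (chromosome 4, 130944385 to 130955476, plus), *Matn2* (chromosome 15, 34306681 to 34436240, plus), *Matn3* (chromosome 12, 8947929 to 8972028, plus), *Matn4* (chromosome 2, 164389393 to 164405160, minus), *Comp* (chromosome 8, 70373548 to 70382066, plus) and *Chad* (chromosome 11, 94565074 to 94569127, plus).

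The promoters of the 2 neighbouring pairs, and that of *Chad* for its TATA box, follow as RefSeq gives them for GRCm38.p6, each from 250 bases before to 50 bases after the gene's RefSeq start and read 5′ to 3′ on the gene's own strand. Capitals mark GC boxes (GGGCGG, or CCGCCC on the other strand) and TATA boxes (TATAAA, or TTTATA on the other strand), which were searched on both strands.
Acan, chr7:79052976-79053275, plus strand: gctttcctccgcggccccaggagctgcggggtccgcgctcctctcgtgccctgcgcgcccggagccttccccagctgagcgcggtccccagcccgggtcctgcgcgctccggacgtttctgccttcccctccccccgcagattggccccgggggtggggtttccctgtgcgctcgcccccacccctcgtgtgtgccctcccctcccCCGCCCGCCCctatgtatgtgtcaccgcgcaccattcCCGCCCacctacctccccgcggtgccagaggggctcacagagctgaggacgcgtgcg
Hapln3, chr7:79130969-79131268, minus strand: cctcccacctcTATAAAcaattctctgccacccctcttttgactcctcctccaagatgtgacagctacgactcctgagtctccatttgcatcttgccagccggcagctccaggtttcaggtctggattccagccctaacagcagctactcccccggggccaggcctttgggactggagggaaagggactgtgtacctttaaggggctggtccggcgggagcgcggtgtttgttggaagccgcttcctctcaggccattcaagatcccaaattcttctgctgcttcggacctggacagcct
Hapln1, chr13:89540386-89540685, plus strand: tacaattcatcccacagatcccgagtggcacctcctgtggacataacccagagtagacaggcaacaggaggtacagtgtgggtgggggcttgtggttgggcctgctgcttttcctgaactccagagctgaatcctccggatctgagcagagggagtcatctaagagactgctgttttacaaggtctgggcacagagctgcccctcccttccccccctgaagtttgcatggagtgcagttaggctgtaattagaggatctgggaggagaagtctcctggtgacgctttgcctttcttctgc
Vcan, chr13:89742463-89742762, minus strand: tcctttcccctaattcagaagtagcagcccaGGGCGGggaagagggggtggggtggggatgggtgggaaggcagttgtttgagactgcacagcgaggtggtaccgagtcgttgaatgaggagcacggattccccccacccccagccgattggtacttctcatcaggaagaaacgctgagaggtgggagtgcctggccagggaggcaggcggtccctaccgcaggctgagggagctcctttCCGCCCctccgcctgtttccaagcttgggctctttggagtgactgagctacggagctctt
Chad, chr11:94564797-94565096, plus strand: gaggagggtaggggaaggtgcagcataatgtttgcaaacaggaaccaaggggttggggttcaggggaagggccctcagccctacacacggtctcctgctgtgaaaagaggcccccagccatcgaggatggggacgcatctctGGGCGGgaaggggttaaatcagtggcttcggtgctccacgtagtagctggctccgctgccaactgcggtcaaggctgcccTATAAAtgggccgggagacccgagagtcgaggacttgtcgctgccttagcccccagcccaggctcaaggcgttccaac
The *Acan* window was the richest in G and C of the 9 windows found, at 74%, against 57% for its neighbour *Hapln3*, 54.3% for *Hapln1*, 61% for *Vcan*, 61% for *Chad* and a median of 52.7% over 32851 promoters of the same length. For *Acan* and *Chad* the RefSeq start lies 257 and 27 bases before the start of the row in the deposited table, for the other 3 it is the same base, and distances are from the RefSeq start. The *Acan* window holds 3 GC boxes, at 44, 40 and 7 bases before the start, the first 2 of which overlap. *Vcan* holds 2, at 219 and 10 bases before the start. *Chad* holds 1 at 108 bases and a TATA box at 28 bases before the start, the usual distance for one, whereas the TATA box letters of *Hapln3* lie at 239 bases. No motif searched was found in the *Hapln1* window. Over the 8 members for which a promoter was found (*Matn4* with 2 windows), 6 held a GC box and 2 the letters of a TATA box, against 35.7% and 13.6% of all promoters. The letters ACAAAG or ACAATG, a core bound by SOX proteins, were searched on both strands and were in 28.6% of all promoters and in none of these windows, which says only that the letters are not in these 300 bases.

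The 10 genes together summed to 1260 to 1670 NRPKM across the WT resting libraries, 1430 to 2260 in WT proliferative and 1150 to 1380 in *aadd*. In the hypertrophic group the sum was 1490 in replicate 1, inside the proliferative range, and 309 and 413 in replicates 2 and 3, below every other library. In tissue samples such as these, fewer chondrocytes and less RNA of a gene per chondrocyte cannot be told apart.

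By NRPKM, a level per length of transcript, *Hapln1* had the highest group mean of the 10 in every group. It was at 309 ± 34.2 NRPKM in WT resting, 527 ± 113 in WT proliferative, 248 ± 301 in WT hypertrophic and 309 ± 44.1 in *aadd* (mean ± SD, n = 3, as for all values in this form), and in WT proliferative only 9 of the 36186 gene rows had a higher mean. *Acan* was second in the 3 WT groups, and its range overlapped that of *Hapln1* in WT resting but not in WT proliferative. *Chad*, *Matn1*, *Matn3* and *Comp* followed, with means of 128 to 225 in WT resting, and each overlapped the next in order in the resting libraries except *Matn1* and *Matn3*. *Matn4* (84.7 ± 11.9) and *Vcan* (61.6 ± 17.6) were lower, and *Matn2* (12 ± 3.52) and *Hapln3* (4.36 ± 1.9) were far below, with no overlap of *Vcan* with *Matn2* or of *Matn2* with *Hapln3*. In WT proliferative cells *Acan*, *Comp*, *Matn3*, *Matn1* and *Chad* each overlapped the next in order, and *Chad*, *Matn4* and *Vcan* did not. In *aadd* the order after *Hapln1* was *Matn1*, *Acan*, *Chad*, *Matn3*, *Comp*, *Vcan* and *Matn4*, each overlapping the next. In hypertrophic replicates 2 and 3 the order was another, with *Acan* (mean 74.3) beside *Hapln1* (74) and *Vcan* (37.1) above *Matn1* (27.7), *Matn3* (18.7) and *Matn4* (7.39).

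**Figure D1:**
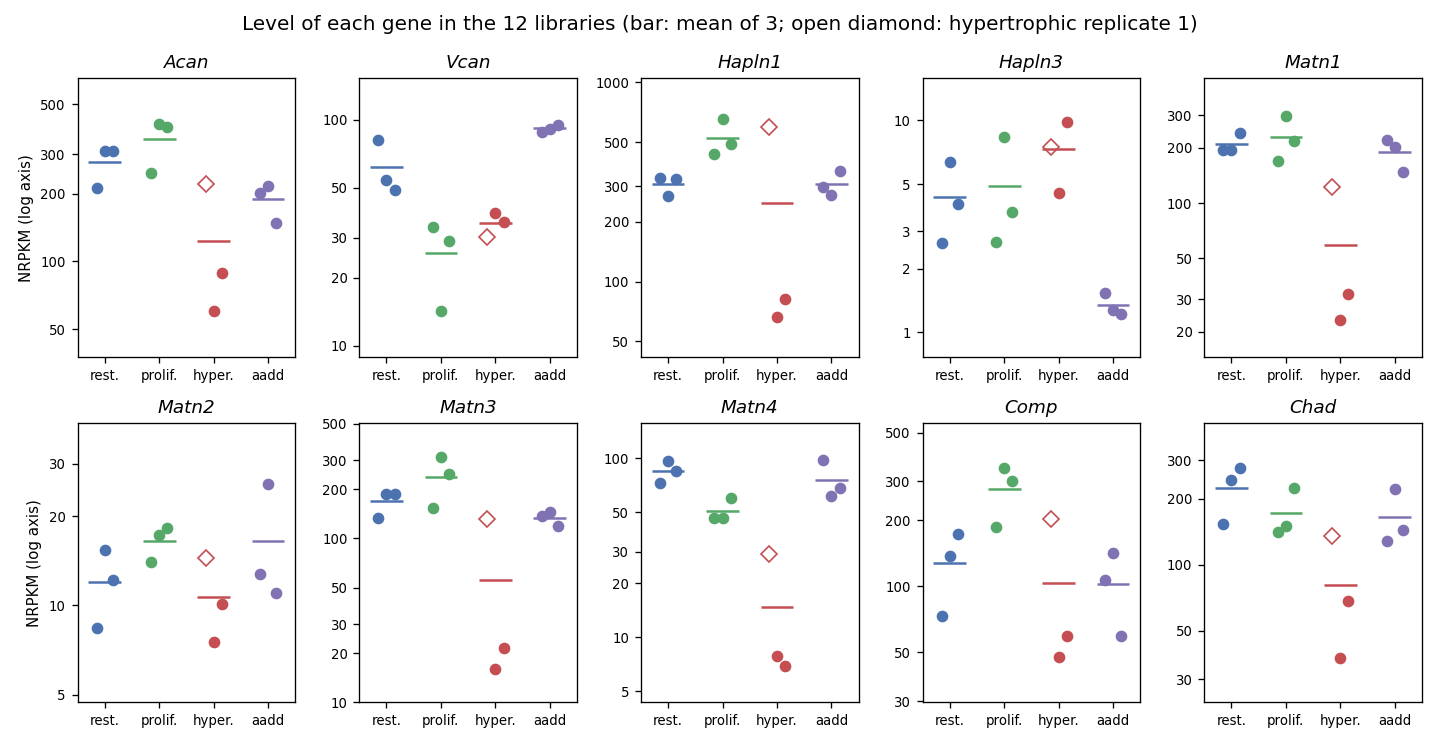
NRPKM of the 10 genes in the 12 libraries, on log axes that differ between panels; points are libraries, bars group means and the open diamond hypertrophic replicate 1. The proliferative points of *Comp* and *Hapln1* lie above all resting points, hypertrophic replicates 2 and 3 lie far below replicate 1 for most genes, and the *aadd* points of *Vcan* lie highest and those of *Hapln3* lowest.

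In a comparison of the 4 groups by limma's moderated F test, 4 of the 10 genes differed at a Benjamini-Hochberg adjusted *P* under 0.05, where 13.8% of the 10936 genes tested did. These were *Matn4* (adjusted *P* 0.0072), *Vcan* (0.0085), *Hapln3* (0.025) and *Matn1* (0.027). *Matn3* (0.052), *Acan* (0.064), *Chad* (0.086), *Comp* (0.16), *Hapln1* (0.24) and *Matn2* (0.41) did not pass. Without hypertrophic replicate 1, 9 passed, where 28.1% of all genes then did, with *Hapln1* at an adjusted *P* of 0.00013, and *Matn2* did not (0.22).

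From resting to proliferative chondrocytes, the levels of *Acan*, *Matn1* and *Matn3* overlapped. *Comp* was higher and *Vcan* lower in the proliferative libraries, the 2 of 10 members that passed the criteria the authors applied between WT compartments (unadjusted *P* up to 0.05 and FC of at least 2), where 5.53% of all genes did, 2.56% higher and 2.97% lower. The median log2 fold change was 0.20 over the 10 members and -0.06 over all genes tested. All fold changes are on the scale of log2(NRPKM + 0.1).

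*Vcan* was at 81.7, 54 and 49.1 NRPKM in WT resting replicates 1 to 3 and at 33.6, 14.2 and 29 in WT proliferative replicates 1 to 3. Every proliferative library lay below every resting library. The difference was -1.32 ± 0.37 (log2 fold change ± SE, limma, adjusted *P* 0.19), a 2.49-fold lower level. Without proliferative replicate 2, the lowest library, it was -0.94 and missed the criteria. *Acan*, its counterpart in mature cartilage, was at 212, 311 and 311 in WT resting and at 248, 407 and 395 in WT proliferative, groups that overlapped, with a difference of 0.32 ± 0.27 (limma, adjusted *P* 0.58). Within each library, *Acan* was 2.6 to 6.34 times *Vcan* in WT resting and 7.37 to 28.6 times *Vcan* in WT proliferative, ranges that do not overlap.

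The link protein gene *Hapln1* was at 330, 270 and 328 in WT resting and at 438, 654 and 488 in WT proliferative. The groups did not overlap, and the 1.69-fold difference (log2 fold change 0.75 ± 0.21, limma, adjusted *P* 0.18) did not reach an FC of 2. *Hapln3* was at 2.64, 6.39 and 4.05 against 2.67, 8.33 and 3.71, with overlap (0.09 ± 0.49, limma, adjusted *P* 0.95).

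Of the matrilins, *Matn4*, the last of the family and not confined to cartilage, was at 72.9, 96.7 and 84.5 in WT resting and at 46.1, 46.4 and 60.3 in WT proliferative. These groups too did not overlap, and the 1.66-fold lower level (-0.73 ± 0.19, limma, adjusted *P* 0.17) was short of an FC of 2. The cartilage matrilins *Matn1* (195, 195 and 242 against 169, 298 and 219) and *Matn3* (134, 188 and 188 against 153, 315 and 247) overlapped between the groups, as did the more widely expressed *Matn2* (8.4, 15.4 and 12.2 against 14, 17.3 and 18.3). The ratio of *Matn4* to *Matn1* was 0.349 to 0.497 in the resting libraries and 0.156 to 0.276 in the proliferative ones.

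The adapters *Comp* and *Chad* parted. *Comp*, a thrombospondin family protein that binds collagens and matrilins, was at 73.2, 137 and 172 in WT resting and at 185, 344 and 301 in WT proliferative, with every proliferative library above every resting one (1.16 ± 0.38, limma, adjusted *P* 0.23). *Chad*, a leucine-rich repeat protein that binds type II collagen and cells, was at 153, 244 and 277 against 141, 151 and 224, with overlap (-0.38 ± 0.30, limma, adjusted *P* 0.55). *Comp* was at 0.478 to 0.622 of *Chad* in every resting library and at 1.32 to 2.28 times *Chad* in every proliferative one. *Comp* no longer met the criteria without resting replicate 1 (0.80), proliferative replicate 2 (0.98) or proliferative replicate 3 (1.07), or when values were taken relative to *Col2a1* (0.96).

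In all, 4 of the 10 members did not overlap between these groups (*Hapln1* and *Comp* higher, *Vcan* and *Matn4* lower), where 24% of all genes tested did not. No member passed adjustment, and 68 of all genes, 0.622%, did. The same-numbered libraries of these groups deviated together, and a fit blocked on that number called the same 2 members and left 9 genes of all tested past adjustment. One proliferative library had a summed skeletal muscle marker level of 138 NRPKM, against 6.81 to 9.65 in the resting libraries, and its part in these results was not tested.

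**Figure D2:**
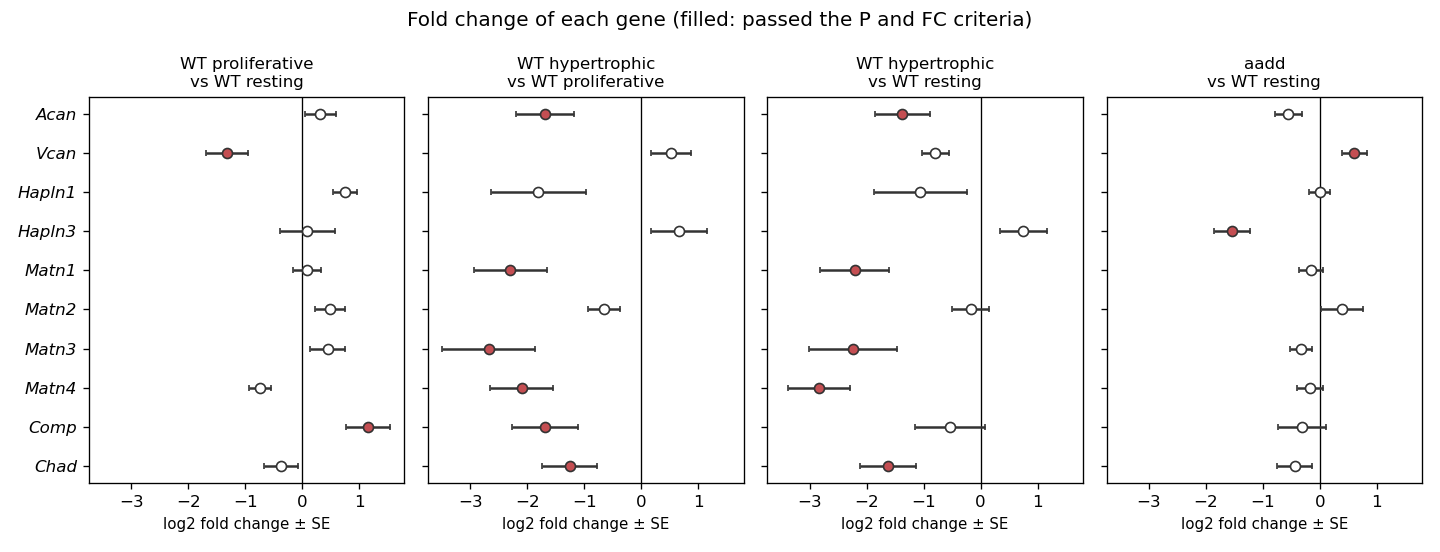
Log2 fold change (log2(NRPKM + 0.1), limma) with its SE for each gene in the 4 comparisons of 3 against 3 libraries; filled points passed the *P* and FC criteria of that comparison. *Vcan* lies below and *Comp* above 0 at the proliferative step, *Acan*, *Matn1*, *Matn3*, *Matn4* and *Chad* lie below 0 in both hypertrophic comparisons, although scaling to *Col2a1* turns *Chad* against proliferative and *Acan* against resting, and *Vcan* and *Hapln3* are the 2 filled points of *aadd*. Scaling to *Col2a1* moved the median log2 fold change of all genes to 1.61 against proliferative and 1.36 against resting.

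Among the genes around these, counts at the same step are read against the 5.53% called of all genes. Of 21 genes of chondroitin sulfate synthesis and sulfation tested, *Chst15* rose (5.21 ± 0.758 NRPKM against 13.1 ± 1.6, log2 fold change 1.32, limma, adjusted *P* 0.045) and *Chst3* fell (17.4 ± 0.422 against 8.1 ± 0.432, -1.10, adjusted *P* 0.037). Both encode sulfotransferases that act on chondroitin sulfate. In the fit blocked on the replicate number, no gene of this list passed adjustment. Of 11 cartilage collagen genes only *Col10a1*, the collagen of hypertrophic cells, passed, at 3.76 ± 1.97 and 84.5 ± 35.9. Of 19 other matrix genes, *Ucma* (104 ± 94.7 and 13 ± 11.6), a marker of distal resting cartilage, was lower and *3110079O15Rik* (*Snorc*, a chondrocyte proteoglycan, 108 ± 41.9 and 230 ± 67.7) higher by the unadjusted criteria. Of 6 aggrecan-cleaving proteases and the inhibitor *Timp3*, only *Adamts15* (3.49 ± 0.955 and 1.11 ± 0.264) passed the unadjusted criteria, lower, and of 6 hyaluronan and lectican partners only *Hyal1* (5.83 ± 1.63 and 2.49 ± 0.178), a hyaluronidase, lower. *Adamts15* was below 5 NRPKM in all libraries of both groups and was tested only because of its *aadd* libraries. Of 6 transcription factor genes of chondrocytes, *Mef2c* (10.1 ± 2.51 and 56.3 ± 3.44), *Runx2* (30.6 ± 9.32 and 80.9 ± 11.8) and *Runx3* (25.8 ± 12.9 and 68.4 ± 4.45), which drive maturation, were called higher and none lower.

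In the hypertrophic libraries most of the 10 genes were lower than in the proliferative ones, and how much lower depended on the library. Their values were lower for 8 of 10 members, or 6 of 10 when taken relative to *Col2a1*, and 6 met the criteria, all lower, where 4.34% of all genes tested were called lower (9.67% in either direction). These were *Acan*, *Matn1*, *Matn3*, *Matn4*, *Comp* and *Chad*, and scaling to *Col2a1* ended each of these calls and turned the sign of *Chad*. *Col2a1* itself was lower in hypertrophic replicates 2 and 3, and this scaling moved the median log2 fold change of all genes from 0.04 to 1.61. The scaled values of these 6 genes all lay below that median. No gene of all tested passed adjustment by limma in the main fit, without scaling, though 2115 had an unadjusted *P* up to 0.05. With all 12 libraries in one fit, 705 genes did, 4 members among them. Without replicate 1, 7 members were called, all lower, against 8.56% of all genes called lower and 18.4% in either direction. All but *Vcan* and *Hapln3*, 8 members, then passed adjustment, all lower and *Matn2* just so (0.050 after rounding), against 8.68% of all genes lower and 17.4% in either direction. Replicate 1 was the hypertrophic library richest in chondrocyte markers, so leaving it out favours lower levels of cartilage genes. The counts without it are therefore only descriptive. The median log2 fold change of the members was -1.69 with replicate 1 and -2.28 without it, against 0.04 and 0.06 over all genes.

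*Matn3* and *Matn1*, the cartilage matrilins, had the largest folds of the 10. *Matn3* was at 131, 16 and 21.4 NRPKM in the hypertrophic libraries, replicate 1 first, against 153 to 315 in WT proliferative. All 3 hypertrophic libraries lay below the proliferative ones, replicate 1 by little. The log2 fold change was -2.68 ± 0.81 (limma, adjusted *P* 0.19) with all libraries and -3.62 ± 0.35 (adjusted *P* 0.0072) without replicate 1, and the proliferative mean was 1.82 times replicate 1 and 12.7 times the mean of the others.

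*Matn1* was at 123, 23.2 and 32.1 in the same order, against 169 to 298 in WT proliferative. It too did not overlap (-2.30 ± 0.64, limma, adjusted *P* 0.17; -3.02 ± 0.31, adjusted *P* 0.0075, without replicate 1). *Matn4* was at 29.3, 7.86 and 6.92 against 46.1 to 60.3, again with no overlap (-2.10 ± 0.56, limma, adjusted *P* 0.17; -2.76 ± 0.20, adjusted *P* 0.0046). *Matn2* was at 14.5, 7.53 and 10.1 against 14 to 18.3, a smaller difference that did not meet an FC of 2 in either fit (-0.66 ± 0.28 and, without replicate 1, -0.91 ± 0.22, but 0.91 when scaled to *Col2a1*). The family was therefore not uniform, with folds without replicate 1 from 1.87 (*Matn2*) to 12.3 (*Matn3*).

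*Acan* was at 222, 60 and 88.7 NRPKM in the hypertrophic libraries, again with replicate 1 first, against 248 to 407 in WT proliferative. Replicate 1 lay just below the proliferative range, and the groups did not overlap. The log2 fold change was -1.69 ± 0.51 (limma, adjusted *P* 0.19), and -2.23 ± 0.31 (adjusted *P* 0.014) without replicate 1. *Vcan* was not called, at 30.2, 38.8 and 35.4 against 14.2 to 33.6 in WT proliferative (0.52 ± 0.35, limma, adjusted *P* 0.43). The ratio of *Acan* to *Vcan* was 7.35 in replicate 1 and 1.55 and 2.51 in replicates 2 and 3, so that the first lay by the lowest proliferative library and the others at or below the resting range.

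*Hapln1* split the group most of the 10 genes and *Hapln3* about least. In replicate 1 *Hapln1* stood at 595, within the proliferative range of 438 to 654, and in the others at 66.6 and 81.5, so that replicate 1 was 8.03 times their mean. With all libraries the difference missed the criteria (-1.81 ± 0.83, limma, adjusted *P* 0.29), and without replicate 1 it was -2.82 ± 0.24 (adjusted *P* 0.0054). Replicate 1 fell inside the proliferative range for 5 of the 10 members (*Vcan*, *Hapln1*, *Hapln3*, *Matn2* and *Comp*), replicate 2 for 1 (*Hapln3*) and replicate 3 for none. *Hapln3* was at 7.47, 4.53 and 9.85 against 2.67, 8.33 and 3.71 in WT proliferative, with overlap (0.66 ± 0.49, limma, adjusted *P* 0.47).

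*Comp* was at 202, 47.4 and 59.3 in hypertrophic replicates 1 to 3 against 185 to 344 in WT proliferative. Replicate 1 lay inside that range and the others well below it (-1.69 ± 0.58, limma, adjusted *P* 0.21; -2.33 ± 0.32, adjusted *P* 0.013, without replicate 1). *Chad* was at 136, 37.6 and 68.1 against 141 to 224, just without overlap (-1.26 ± 0.48, limma, adjusted *P* 0.25; -1.73 ± 0.35, adjusted *P* 0.031, without replicate 1), with its sign turned by scaling to *Col2a1* (0.33). Both calls were lost without hypertrophic replicate 2 or 3 or proliferative replicate 2 or 3, that of *Chad* also without proliferative replicate 1 (-1.38 to -0.80 over these 5), and that of *Comp* (-1.61 to -1.29 over these 4) also in the fit blocked on the replicate number. *Matn3* lost its call without proliferative replicate 2. Of the 10 members, 5 did not overlap between these groups, all lower, where 10.9% of all genes tested were lower without overlap (24.2% in either direction).

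**Figure D3:**
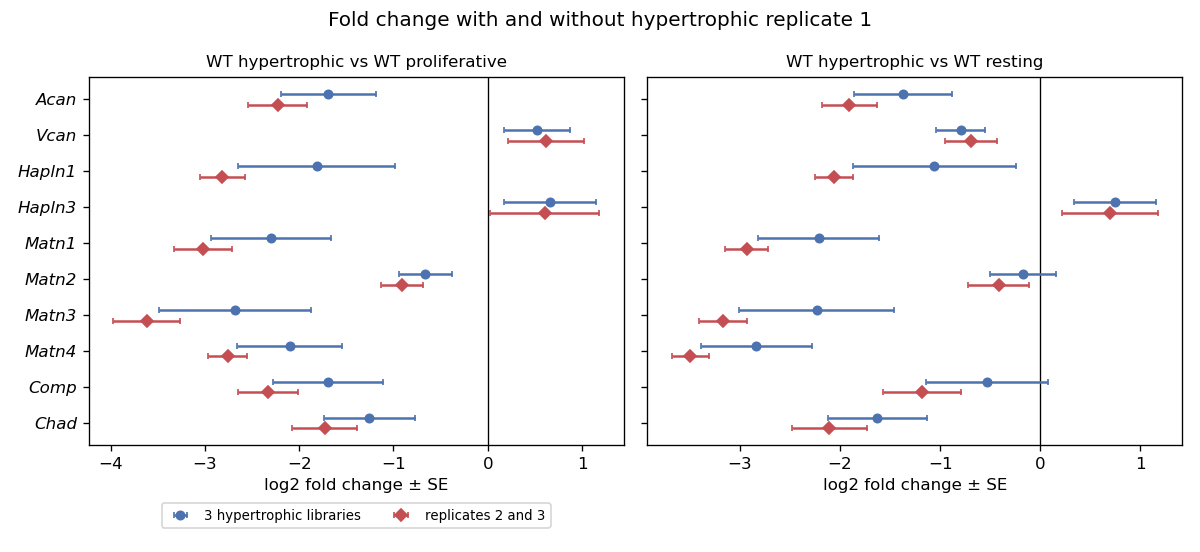
Log2 fold change (log2(NRPKM + 0.1), limma) with its SE for each gene in the 2 comparisons of hypertrophic cells, with all 3 hypertrophic libraries (circles) and with replicates 2 and 3 only (diamonds). Without replicate 1 the SE of *Hapln1* against proliferative falls from 0.83 to 0.24 and its difference moves from -1.81 to -2.82. The directions of *Chad* and *Matn2* against proliferative and of *Acan*, *Hapln1*, *Comp*, *Vcan* and *Matn2* against resting turn when values are scaled to *Col2a1*. That scaling moved the median log2 fold change of all genes to 1.61 against proliferative and 1.36 against resting.

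Against WT resting, the same libraries gave 5 members called, all lower, where 7.2% of all genes tested were called lower and 5.84% higher (13% in all). They were *Matn4* (-2.84 ± 0.55, limma, adjusted *P* 0.038), *Matn3* (-2.24 ± 0.78, adjusted *P* 0.13), *Matn1* (-2.21 ± 0.61, adjusted *P* 0.084), *Chad* (-1.63 ± 0.49, adjusted *P* 0.10) and *Acan* (-1.37 ± 0.49, adjusted *P* 0.14, with its sign turned by scaling to *Col2a1*). With all libraries *Matn4* alone passed adjustment, as 6.36% of all genes did, and scaling to *Col2a1* ended all 5 calls. That scaling moved the median log2 fold change of all genes tested from -0.02 to 1.36, and the scaled values of these 5 genes lay below it. Without replicate 1 the differences were -3.49 ± 0.19 for *Matn4* (limma, adjusted *P* 8e-04), -3.17 ± 0.24 for *Matn3* (0.0014), -2.93 ± 0.22 for *Matn1* (0.0013), -2.11 ± 0.37 for *Chad* (0.015) and -1.91 ± 0.27 for *Acan* (0.0083). With *Hapln1*, 6 members then passed adjustment, all lower, where 24.2% of all genes did in either direction. *Matn4* had a lower range at each stage, from 72.9 to 96.7 in WT resting through 46.1 to 60.3 in WT proliferative to 6.92 to 29.3 in WT hypertrophic. *Vcan* lay below the resting range in all 3 hypertrophic libraries without an FC of 2 (-0.79 ± 0.24, adjusted *P* 0.10, turned to 0.59 by scaling to *Col2a1*), and *Comp*, higher at the proliferative stage, overlapped with the resting libraries (-0.53 ± 0.61, adjusted *P* 0.61, turned to 0.85 by that scaling). In all, 5 members did not overlap, all lower, where 17.8% of all genes were lower without overlap (32% in either direction). Without replicate 1, 7 members were called lower, against 9.83% of all genes, which added *Hapln1* (-2.06 ± 0.19, limma, adjusted *P* 0.0022) and *Comp* (-1.18 ± 0.39, adjusted *P* 0.080), both of which had a positive sign when all libraries were scaled to *Col2a1* (0.33 and 0.85). Leaving out 1 library ended the call of *Matn3* for any resting library and for hypertrophic replicate 2 or 3, that of *Acan* for resting replicate 2 or 3 and hypertrophic replicate 2 or 3, and that of *Chad* for resting replicate 3, and ended neither that of *Matn1* nor that of *Matn4*.

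The values of the other cell types moved with these falls. In hypertrophic replicates 2 and 3, where the 10 genes summed to 309 and 413 NRPKM, the 10 osteoclast markers summed to 1310 and 963, the 10 macrophage markers to 450 and 364, the 10 endothelial markers to 303 and 210 and the 8 erythroid markers to 374 and 413. In replicate 1 these sums were 70.3, 31.1, 20.8 and 63.9. The macrophage sums of replicates 2 and 3 came mostly from *Cd68*, *Tyrobp* and *Csf1r*. In no hypertrophic library were *Emr1*, *C1qa*, *C1qb*, *C1qc*, *Mrc1* or *Aif1* above 6.1 NRPKM, and *Lyz2* reached 37.1. None of the markers of these 4 lists was at 0 in all hypertrophic libraries. Their part in the result was not tested.

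*Acan* kept its ratio to *Col2a1*, the gene of the main cartilage collagen, in every WT group. It was at 22.1 to 26.6% of *Col2a1* in WT resting, 26.6 to 27.7% in WT proliferative and 24.7, 24.5 and 25.9% in hypertrophic replicates 1 to 3, although *Col2a1* itself went from 894 to 1530 NRPKM in WT proliferative to 898, 245 and 343 in the hypertrophic libraries. In *aadd* it was at 20.2 to 23.4%. *Comp* was at 9.16 to 12.2% of *Col2a1* in WT resting, 20.2 to 22.5% in WT proliferative and 17.3 to 22.5% in WT hypertrophic, with 8.24 to 13.2% in *aadd*. *Matn1* and *Matn3* in hypertrophic replicates 2 and 3 fell further than *Col2a1* did. *Matn1* was at 9.48 and 9.37% there, against 14.7 to 19.5% in WT proliferative and 13.7% in replicate 1. *Matn3* was at 6.53 and 6.25%, against 16.6 to 20.6% and 14.6%. *Matn4* was at 2.02 to 3.26% of *Col2a1* in all 3 hypertrophic libraries, against 3.03 to 5.16% in WT proliferative and 6 to 9.13% in WT resting.

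*Vcan*, *Hapln3* and *Matn2* went the other way on this scale. *Vcan* was at 15.8 and 10.3% of *Col2a1* in hypertrophic replicates 2 and 3, 3.36% in replicate 1 and 0.928 to 3.76% in WT proliferative. *Hapln3* was at 0.832 to 2.87% in the hypertrophic libraries, above all 9 others, which lay at 0.118 to 0.544%. Dividing by *Col2a1* took the median log2 fold change of all genes tested from 0.04 to 1.61 between hypertrophic and proliferative cells and from -0.02 to 1.36 between hypertrophic and resting cells. In the first of these, against that shift, *Vcan* (2.10) and *Hapln3* (2.22) were somewhat above the median gene and *Matn2* (0.91) was below it. *Acan* (-0.11), *Comp* (-0.11) and *Hapln1* (-0.23) were far below it. This scaling was chosen after the data were seen, and the SE of these values in limma was 0.73 to 0.79 for all 10 genes.

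**Figure D4:**
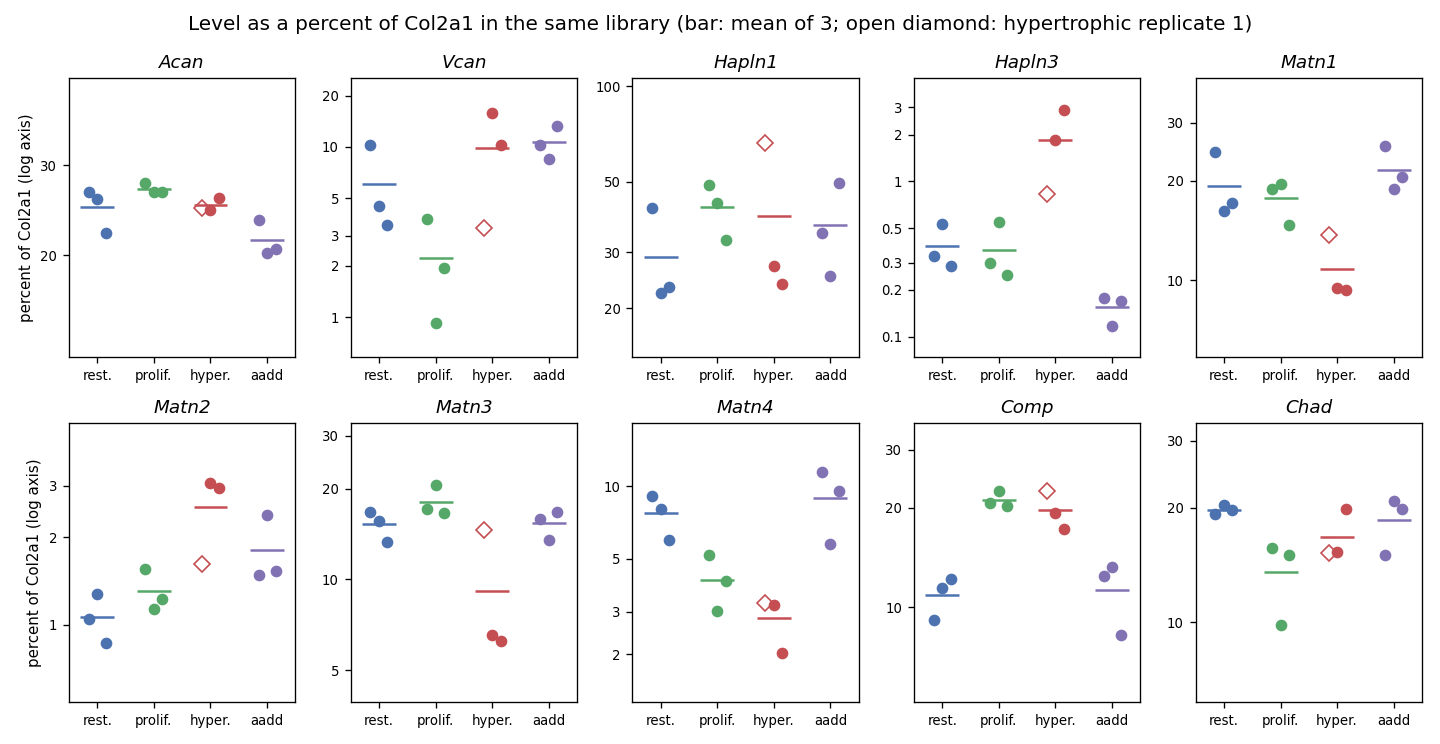
Level of each gene as a percent of *Col2a1* in the same library, on log axes that differ between panels; points are libraries, bars group means and the open diamond hypertrophic replicate 1. *Acan* stays between 20.2 and 27.7% in all 12 libraries, *Comp* overlaps between WT proliferative and WT hypertrophic (17.3 to 22.5%), and *Matn1* and *Matn3* are lower in hypertrophic replicates 2 and 3.

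Of 21 genes that make or sulfate chondroitin sulfate, the chains of aggrecan, 8 were called lower and 1 higher in hypertrophic against proliferative cells (10 and 1 without replicate 1) and 12 were not called, where 4.34% of all genes were called lower and 5.32% higher, with a median log2 fold change of -0.65 against 0.04 over all genes. They included the UDP-sugar transporter gene *Slc35d1* (62.9 ± 14.1 NRPKM in WT proliferative and 20.6 ± 22.2 in WT hypertrophic), the sulfate transporter gene *Slc26a2* (116 ± 28.5 and 31.4 ± 18.7), *Papss2* (294 ± 42 and 104 ± 95.5), whose enzyme makes the sulfate donor, and the sulfotransferase gene *Chst11* (161 ± 27.9 and 63.4 ± 41.5). The gene called higher against WT resting was *Chst15* (30 ± 7.19 in WT hypertrophic and 5.21 ± 0.758 in WT resting, 2.48, limma, adjusted *P* 0.0045). Of 11 cartilage collagen genes, 7 were called lower and 1 higher (the same counts without replicate 1), of 19 other matrix genes 9 were called lower (9 without replicate 1), with *Epyc* (194 ± 114 and 16.2 ± 19.5) and *Prelp* (319 ± 84.5 and 73.8 ± 94.7) among them, and of 6 transcription factor genes of chondrocytes 3 were called lower, *Sox5*, *Sox6* and *Sox9* (4 without replicate 1). *Sox9*, the main regulator of the cartilage matrix genes, was at 164 to 180 in WT proliferative and at 143, 12.9 and 17.6 in hypertrophic replicates 1 to 3.

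Some genes for proteins that cut aggrecan or hyaluronan, or bind hyaluronan, were higher in the hypertrophic libraries. Of 6 aggrecan-cleaving proteases and the inhibitor *Timp3*, 2 genes were called higher against proliferative cells, the protease gene *Adamts9* (8.91 ± 2.5 and 33.2 ± 19.7) and the inhibitor gene *Timp3* (26.7 ± 7.14 and 58.4 ± 14.7), and none lower. Without replicate 1, 5 were called higher. Of all genes tested, 5.32% were called higher with replicate 1, and 1071 of 10936 without it. *Mmp13* was at 3.81 to 6.24 in WT proliferative and at 3.05, 735 and 661 in hypertrophic replicates 1 to 3, and was not called with all libraries. Of 6 hyaluronan and lectican partners, *Cd44*, a hyaluronan receptor (5.52 ± 2.55 and 32.5 ± 22.6), and the hyaluronidase gene *Hyal1* (2.32 to 2.68 and 6.51 to 19.6) were called higher. *Cd44* was at 6.6 in replicate 1 and at 48.5 and 42.5 in the others, and *Adamts9* at 11.2 and at 49.3 and 39.2. The summed osteoclast, macrophage and endothelial markers split the same way, and their part in it was not tested. Against WT resting, 2 genes of the aggrecan-cleaving list were called higher and *Adamts15*, below 5 NRPKM in all libraries of both groups, lower. Called lower were 10 of the 19 other matrix genes, 7 of the 21 chondroitin sulfate genes and 6 of the 11 collagen genes. Of all genes tested, 5.84% were called higher and 7.2% lower there.

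In *aadd* 8 of the 10 genes overlapped with WT resting. *Vcan* was higher and *Hapln3* lower, the 2 of 10 members that met the criteria of this comparison (unadjusted *P* up to 0.05 and FC of at least 1.5), where 6.56% of all genes did, 3.78% higher and 2.78% lower. *Hapln3* passed the filter through WT libraries only. The median log2 fold change was -0.24 over the members and 0.01 over all genes. No member passed adjustment by limma, 13 genes of all tested did (0.119%), and 1048 had an unadjusted *P* up to 0.05.

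*Vcan* was at 88.6, 90.6 and 95.3 NRPKM in *aadd* replicates 1 to 3 and at 81.7, 54 and 49.1 in WT resting. The *aadd* libraries were close to each other (91.5 ± 3.45) and each lay above every WT library of any compartment, though resting replicate 1 was near them. The difference was 0.61 ± 0.22 (limma, adjusted *P* 0.45), 1.52-fold, close to the criterion, and leaving out resting replicate 2 or 3 or any of the *aadd* libraries ended the call, with log2 fold changes of 0.46 to 0.63. *Acan* was at 201, 217 and 148 against 212, 311 and 311, with overlap at 1 library of each group (-0.56 ± 0.24, limma, adjusted *P* 0.52). *Acan* was 2.27, 2.39 and 1.55 times *Vcan* in the *aadd* libraries, below the 2.6 to 6.34 times of WT resting. Joint markers summed to 245 to 248 NRPKM in *aadd* and to 143 to 196 in WT resting, skeletal muscle markers to 17.9 to 61.9 and 6.81 to 9.65, and tendon markers, with overlap, to 361 to 664 and 196 to 539. The joint markers were not uniform. *Sfrp2* (83.3 to 99.9 against 35.3 to 63.2), *Gdf5*, *Dcx* and *Wnt4* lay above WT resting. *Prg4*, *Erg*, *Osr2*, *Wnt9a*, *Cd44* and *Creb5* overlapped, with lower medians in *aadd* for *Prg4* (2.92 against 7.36) and *Cd44* (1.87 against 10.4). No marker of these 3 lists was at 0 in all libraries of either group. Their part in the *Vcan* difference was not tested.

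*Hapln3* was at 1.53, 1.27 and 1.22 NRPKM in *aadd* and at 2.64, 6.39 and 4.05 in WT resting. These 3 libraries were the lowest of all 12, and they had about 14.3, 9.37 and 11.7 reads of the gene by the estimate used here, against 26.2 to 51.6 in WT resting. The 2.93-fold lower level (-1.55 ± 0.31, limma, adjusted *P* 0.20) met the criteria in all 14 alternatives in which the gene could be tested, with log2 fold changes of -1.86 to -1.14 and adjusted *P* of 0.11 to 0.55. Of the libraries compared, only WT resting replicate 2 reached 5 NRPKM. *Hapln3* thus passed the filter only through WT libraries, where it is higher, and its call is no independent support. With the filter applied to the libraries compared it was not tested. *Hapln1*, whose protein holds aggrecan in cartilage, was at 298, 271 and 357 against 330, 270 and 328, overlapping throughout (-0.01 ± 0.18, limma, adjusted *P* 0.99). *Hapln1* was therefore 195 to 293 times *Hapln3* in *aadd*.

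The matrilins and adapters overlapped between *aadd* and WT resting in every case. *Matn1* was at 148 to 220 against 195 to 242, *Matn3* at 120 to 145 against 134 to 188, *Matn4* at 61.8 to 98 against 72.9 to 96.7 and *Matn2* at 11 to 25.7 against 8.4 to 15.4. Their log2 fold changes lay between -0.33 and 0.39, with an SE of 0.20 to 0.37 (limma, adjusted *P* 0.67 to 0.84), and scaling to *Col2a1* turned the sign of *Matn1*, *Matn3* and *Matn4*, and of *Comp* and *Hapln1*. That scaling moved the median log2 fold change of all genes tested from 0.008 to 0.345. *Comp* was at 107, 142 and 59.3 in *aadd*, within or below the resting range, and none of its libraries reached the lowest proliferative library at 185. *Comp* was at 0.413 to 0.83 of *Chad* in *aadd*, against 0.478 to 0.622 in the resting and 1.32 to 2.28 in the proliferative libraries. Of the 10 members, 2 did not overlap between *aadd* and WT resting (*Vcan* higher, *Hapln3* lower), where 15.4% of all genes did not, 8.08% higher and 7.34% lower.

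Around them, none of 11 cartilage collagen genes met the criteria in *aadd*, where 2.78% of all genes tested were called lower and 3.78% higher. Of 21 genes of chondroitin sulfate synthesis, 5 were called lower and 1 higher, with a median log2 fold change of -0.25 against 0.01 over all genes. *Csgalnact1*, whose enzyme starts the chain, was at 55 ± 5.42 in WT resting and 33.2 ± 6.64 in *aadd* (-0.74, limma, adjusted *P* 0.32). *Xylt1*, whose enzyme adds the first sugar to the protein, was at 68.4 ± 16.4 and 40.9 ± 7.4 (-0.73, adjusted *P* 0.41). Of the aggrecan-cleaving proteases, *Htra1* (9.44 ± 4.66 and 21.6 ± 7.83) and *Adamts1* (6.71 ± 0.394 and 11.6 ± 1.94), whose products cut aggrecan or versican among other proteins, were called higher, and no gene of this list was called lower. *Adamts15* was at 2.74 to 4.57 in WT resting and at 7.2 to 13.8 in *aadd*; it reached 5 NRPKM in the 3 *aadd* libraries only and was tested for that reason, so its call is not counted. Of 6 hyaluronan and lectican partners, *Has1* (17.3 ± 5.04 and 28.4 ± 5.69) was called higher and *Has3* (7.21 ± 1.48 and 4.56 ± 1.18) lower, both hyaluronan synthases. Of 19 other matrix genes 3 were called lower, among them *Ucma* (104 ± 94.7 and 13.7 ± 5.32), and 1 higher, *Ogn* (42.5 ± 11.8 and 80.2 ± 31.6), and of 6 transcription factor genes 1 was called lower, *Runx3* (25.8 ± 12.9 and 5.01 ± 0.514). All comparisons with WT resting share its 3 libraries.

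The genes whose profile over the 12 libraries was nearest to each member are given as a description, measured as the root mean square of the differences in log2(NRPKM + 0.1) after each gene's mean was removed, among 10935 other genes tested. Libraries share depth and cell makeup, so near profiles carry these too. *Acan* was nearest to *Trpv4*, a calcium channel gene of chondrocytes (0.108), and then to *Col2a1* (0.145) and *Chst11* (0.184). *Matn1* was nearest to *Col9a3* (0.132), *Lect1* (0.146) and *Mia* (0.160), all cartilage genes. *Matn3* was nearest to *S100b* (0.228), *Prelp* (0.234) and *Ncmap* (0.245), and *Matn4* to *Rgma* (0.235), *Rian* (0.264) and *Wwp2* (0.293). *Hapln1* was nearest to *A330076H08Rik* (0.222), *Pak3* (0.336) and *Papss2* (0.342), *Comp* to *Chst12* (0.362), *3110079O15Rik* (0.376) and *Zbtb20* (0.381), and *Chad* to the imprinted genes *Peg3* (0.281) and *Igf2* (0.297) and to *Col2a1* (0.298). The nearest gene to *Vcan* was *Adcy4* (0.198) and to *Matn2* *Gm15401* (0.199). *Hapln3* had no gene nearer than 0.489 (*Zbtb7c*).

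Among the members themselves, *Matn1* and *Matn3* were the closest pair at 0.286, and *Acan* was nearer to *Chad* (0.387) and *Comp* (0.431) than to *Hapln1* (0.488). The SD of a member's log2 level over the 12 libraries was 0.49 (*Matn2*) to 1.30 (*Matn3*), against a median of 0.39 over all genes tested.

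Several members share their position with another row of the table, and the use of strand in counting is not given in the sources used here. *Acsf2* overlaps *Chad* and had means of 48.9, 34.5, 20.7 and 29.5 NRPKM in WT resting, WT proliferative, WT hypertrophic and *aadd*. *Rbpjl* overlaps *Matn4* and had means of 11.5, 6.26, 1.15 and 5.71. *Gm4117* overlaps *Vcan*, with means of 6.83, 4.18, 2.65 and 10.4, and *9430069I07Rik* overlaps *Matn2*, with 5.04, 4.38, 3.75 and 4.02. Reads of these rows and of the members cannot be told apart where they overlap.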

How the data were processed

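RNA-Seq covered 12 libraries of LCM chondrocytes, 3 in each of 4 groups, with amplification of total RNA before sequencing. The deposited values are RPKM that the authors normalized further between libraries (NRPKM) in GeneSpring from alignments to mm10, after low quality, duplicate and multiply aligned reads were removed; the submitters' processing notes name TopHat. The between-library method and the use of strand are not given in the sources used here. Because values are normalized, the read depth was estimated from rows whose lowest value is 1 read, as if NRPKM were plain RPKM.

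Tests were run in limma 3.58.1 (R 4.3.3) on log2(NRPKM + 0.1) for genes that reached 5 NRPKM in 3 or more of the 12 libraries. Each pair of groups was fitted on its own 6 libraries, with an F test over all 12. The study's criteria for a call were used, an unadjusted *P* no higher than 0.05 together with an FC no lower than 2 (WT compartments) or 1.5 (*aadd*). Adjusted *P* is Benjamini-Hochberg over all genes tested, and adjusted *P* under 0.05 is termed passing adjustment. An exact permutation test of a single gene cannot go below 0.1 with 3 against 3 libraries, so none is given. The scripts were tested on simulated data.

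All 10 genes are named in every group. From each list of related genes, up to 4 called genes with the largest differences could be named, or, where none was called, those with the highest means. The members and lists were chosen with earlier results of these data known. Resting and proliferative libraries that carry one number in the labels shared their deviations over genes (*r* of 0.281, 0.179 and 0.198 for numbers 1 to 3). The origin of the number is not given in the sources used here. The main fits, from which fold changes and *P* are given unless another fit is named, took no account of it. A fit blocked on the number was run as an alternative. In the other comparisons at least 1 *r* was under 0.1. Alternatives were the pseudocount, filter, scaling, fitted libraries, replicate block, variance trend and leaving out each library. Promoters came from RefSeq tables (GRCm38.p6), in which *Matn2* and *Comp* had no entry.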

Additional observations from a re-analysis of the deposited data

How the results depend on the processing

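Of 598 fold changes of single genes recomputed under an alternative, 513 kept their direction and their side of the criteria, 45 lost a call, 13 gained one and 27 reversed. Unless named here, the counts of genes called stayed within 1.5 times of the reported ones, and the cause of each change was not tested beyond what the alternative itself alters.

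Scaling every library to *Col2a1*, chosen after seeing the data, called 1 of the 10 genes between proliferative and resting cells, 2 between hypertrophic and proliferative, 1 between hypertrophic and resting, and 2 in the comparison of the 4 groups. This scaling moved the median log2 fold change of all genes to -0.251, 1.611 and 1.355 in these 3 pairs, in that order, and to 0.345 in *aadd*. It reversed the log2 fold change of *Hapln3* (-0.10) and *Matn1* (-0.11) between proliferative and resting cells, of *Matn2* (0.91) and *Chad* (0.33) between hypertrophic and proliferative cells, and of *Acan* (0.015), *Vcan* (0.59), *Hapln1* (0.33), *Matn2* (1.20) and *Comp* (0.85) between hypertrophic and resting cells. In *aadd* it reversed *Hapln1* (0.34), *Matn1* (0.18), *Matn3* (0.015), *Matn4* (0.17) and *Comp* (0.026). Quantile normalization reversed *Matn1* between proliferative and resting cells (-0.094) and *Hapln1* in *aadd* (0.15).

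Fitting all 12 libraries together called 1 gene between proliferative and resting cells (*Comp* was lost) and 1 in *aadd* (*Vcan* was lost). It called 7 genes between hypertrophic and proliferative cells, all lower, and 4 passed adjustment, where 705 of all genes tested did. Between hypertrophic and resting cells it called 5, and 4 passed adjustment, where 1605 of all genes did. Without the filter on low values 2 genes passed in the comparison of the 4 groups and 1 was called in *aadd* (*Hapln3*). With the filter applied to the libraries compared, *Hapln3* was not tested and 1 gene was called in *aadd*.

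Leaving out 1 library at a time gave 2 (without hypertrophic replicate 3) to 9 genes (without hypertrophic replicate 1) over the 4 groups, 0 (without proliferative replicate 2) to 2 between proliferative and resting cells, 2 (without resting replicate 3) to 7 (without hypertrophic replicate 1) between hypertrophic and resting cells, and 1 to 4 (without resting replicate 1, with *Acan* and *Chad* added) in *aadd*. Between hypertrophic and proliferative cells it gave 4 to 7, and *Comp* and *Chad* were lost without hypertrophic replicate 2 or 3 or proliferative replicate 2 or 3, *Chad* also without proliferative replicate 1, and *Matn3* without proliferative replicate 2. *Hapln3* was called higher in hypertrophic cells without proliferative replicate 2. Against resting cells it was called higher without resting replicate 2 or hypertrophic replicate 2. Reversals were seen in *Hapln3* (-0.37 to 0.44) and *Matn1* (-0.13 to 0.28) between proliferative and resting cells, in *Matn2* (-0.42 to 0.053) between hypertrophic and resting cells, and in *Hapln1* (-0.12 to 0.084), *Matn1* (-0.27 to 0.012) and *Comp* (-0.67 to 0.036) in *aadd*.

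With a replicate block in the fit, 2 genes were called between proliferative and resting cells and 2 in *aadd*, both as without it, 5 between hypertrophic and proliferative cells (*Comp* lost, limma, adjusted *P* 0.32) and 4 between hypertrophic and resting cells (*Acan* lost, adjusted *P* 0.23). For the comparisons with hypertrophic cells and *aadd* the libraries shared only a number. Genes passing adjustment among all tested went with the block from 68 to 9 between proliferative and resting cells, from 696 to 241 between hypertrophic and resting cells and from 13 to 0 in *aadd*. Depth limits *Hapln3* most, with an estimated 9.37 to 98.5 reads per library, while every other gene had at least 48.8.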

Other observations

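Between the 2 link protein genes the ratio of *Hapln1* to *Hapln3* in a library was 42.2 to 125 in the WT resting, 78.5 to 164 in the WT proliferative and 195 to 293 in the *aadd* libraries, and 79.6, 14.7 and 8.28 in hypertrophic replicates 1 to 3. The estimated reads of *Hapln3* were 14.3, 9.37 and 11.7 in the *aadd* libraries and 58.6, 49.2 and 98.5 in hypertrophic replicates 1 to 3. *Hapln1* took 39.9% of the summed NRPKM of the 10 genes in hypertrophic replicate 1, the highest share of the 12 libraries, and 21.5 and 19.7% in replicates 2 and 3. *Vcan* took 12.5 and 8.56% there, against 2.03% in replicate 1 and 0.63 to 2.35% in the WT proliferative libraries.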
